A study of Homo sapiens with 6 samples.

Results

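The ZBTB genes encode transcription factors that carry a BTB domain at one end and zinc fingers at the other, and their levels were followed in a glioblastoma cell line with and without the agent P-bi-TAT. Members were the array symbols that read ZBTB and a number, each read from the probe set with the highest mean over the 6 arrays. The symbol rule found 40 of the 17687 genes that a probe set with 1 symbol stands for. Of these, 39 are BTB zinc finger genes, each with 1 probe set. The other is ZBTB8OS, whose product, archease, helps a tRNA ligase and carries neither domain, so it is described apart. ZBTB3 and ZBTB20 were not analysed here.

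U87MG is an established human glioblastoma line, grown in RPMI medium with serum and, according to the methods, kept in low serum before treatment. P-bi-TAT, made to bind the thyroid hormone site on integrin αvβ3, was given at 30 µM for 24 h (3 arrays), and the untreated cells received PBS alone for the same 24 h (3 arrays). The total RNA was measured on Affymetrix Clariom S arrays, and each probe set has 1 log2 expression value per array. The labels do not name separate cultures for the 3 arrays of a group. The p-values therefore reflect the variation among these arrays alone, which may be technical. In such bulk RNA, fewer cells with a transcript and less of it per cell cannot be told apart.

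The BTB domain lets these proteins pair with each other and recruits corepressors such as NCOR and BCOR, or the ubiquitin ligase scaffold CUL3, and the zinc fingers choose the DNA sequence. Most of the studied members repress their target genes. Some steer blood cell lineages, some read methylated DNA, and others act on MYC and p53 target genes, at telomeres or in developing neurons.

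Sequence just before the start of transcription is shown for 5 members on which the results turn: ZBTB32 and ZBTB39, whose treated and untreated arrays did not overlap, ZBTB2, with the highest log2 difference once P-bi-TAT replicate 1 was left out, and ZBTB33 and ZBTB21, among the members with the highest signal. Each is the 250 bases before the start in the RefSeq annotation of GRCh38.p14, given 5′ to 3′ on the strand of the gene. They lie at chr19:35704308-35704557 (plus strand) for ZBTB32, chr12:57006547-57006796 (minus) for ZBTB39, chr6:151391560-151391809 (minus) for ZBTB2, chrX:120250562-120250811 (plus) for ZBTB33 and chr21:42010361-42010610 (minus) for ZBTB21. Capitals mark matches, on either strand, to an E-box, which reads CACGTG, to the letters CCAAT of a box of that name, to a GC box, which reads GGGCGG, to a cAMP response element, TGACGTCA, to an ETS site with the letters CCGGAAG, or to a Kaiso site, TCCTGCNA.
ZBTB32: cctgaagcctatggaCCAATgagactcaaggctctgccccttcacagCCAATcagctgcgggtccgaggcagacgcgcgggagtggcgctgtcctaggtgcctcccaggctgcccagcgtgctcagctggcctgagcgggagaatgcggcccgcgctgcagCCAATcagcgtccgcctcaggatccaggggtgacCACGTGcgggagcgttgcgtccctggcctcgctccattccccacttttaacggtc
ZBTB39: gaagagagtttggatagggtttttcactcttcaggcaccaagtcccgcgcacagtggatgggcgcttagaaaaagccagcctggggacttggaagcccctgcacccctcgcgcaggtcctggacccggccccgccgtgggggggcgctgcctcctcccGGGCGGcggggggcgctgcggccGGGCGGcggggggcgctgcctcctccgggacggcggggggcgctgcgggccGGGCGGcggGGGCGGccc
ZBTB2: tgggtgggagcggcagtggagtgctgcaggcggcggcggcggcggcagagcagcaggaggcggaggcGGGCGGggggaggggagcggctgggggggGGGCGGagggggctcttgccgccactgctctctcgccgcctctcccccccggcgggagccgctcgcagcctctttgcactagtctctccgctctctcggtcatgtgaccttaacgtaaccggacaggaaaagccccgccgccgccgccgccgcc
ZBTB33: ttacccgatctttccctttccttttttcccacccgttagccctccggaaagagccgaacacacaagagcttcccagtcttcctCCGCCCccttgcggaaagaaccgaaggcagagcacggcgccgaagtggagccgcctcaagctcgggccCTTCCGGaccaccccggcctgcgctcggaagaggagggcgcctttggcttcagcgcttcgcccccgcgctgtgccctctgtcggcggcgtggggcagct
ZBTB21: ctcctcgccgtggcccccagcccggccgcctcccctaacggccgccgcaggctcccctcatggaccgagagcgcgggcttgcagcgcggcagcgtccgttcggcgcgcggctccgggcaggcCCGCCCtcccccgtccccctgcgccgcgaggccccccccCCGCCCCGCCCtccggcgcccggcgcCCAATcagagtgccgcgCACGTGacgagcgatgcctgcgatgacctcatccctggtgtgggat
ZBTB32 held 3 CCAAT boxes and 1 E-box and no GC box, whereas ZBTB39 held 4 GC boxes and none of the other motifs. ZBTB2 held 2 GC boxes, ZBTB33 1 GC box and 1 ETS site, and ZBTB21 3 GC boxes, of which 2 share a base, with 1 CCAAT box and 1 E-box. Of the 39 members, 33 have such a window in the table, and ZBTB6, ZBTB10, ZBTB16, ZBTB17, ZBTB40 and ZBTB41 are the others. Taking the first listed start of each gene, a GC box was in 72.7% of the member windows and 42.3% of the windows of all 27305 genes, an E-box in 21.2% and 6.49%, an ETS site in 24.2% and 8.82%, a CCAAT box in 42.4% and 33%, a Kaiso site in 6.06% and 3.68%, and a cAMP response element in 3.03% and 1.77%. The median GC content was 64.8% in the member windows and 58.0% in all windows. The windows of all genes were not restricted to protein coding genes, whereas the members all encode proteins, so the shares may be of unlike sets. No motif contains another, and a match is a description of the sequence only.

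One array, P-bi-TAT replicate 1, was unlike the rest. Its gene probe sets had a median of 3.52 against 4.73 to 4.85 in the other 5, and it held 4527 distinct values against 23072 to 23438. Among the members its median was 3.41 against 5.24 to 5.85, and 10 members shared a value, equal to 5 decimals, with another member in it, for example ZBTB8A, ZBTB11 and ZBTB48 at 2.74. Results are therefore given with and without it. Negative control probe sets had a level of 3.81 in untreated cells and 3.23 after P-bi-TAT. Of the mesenchymal glioma markers, 4 of 6 were above that level in untreated cells, with VIM at 15.25, CD44 at 10.86 and TGFBI at 16.34, whereas CHI3L1, THY1 and the astrocyte marker GFAP (3.23) were not. Above it were 3 of 4 astrocyte markers, 3 of 6 microglial and blood markers, 3 of 3 neuronal, 2 of 3 oligodendrocyte, 1 of 3 endothelial and 0 of 2 epithelial markers measured, and apart from the astrocyte list their untreated means reached at most 5.31.

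In untreated cells the members had a median log2 value of 5.68, against 4.93 over all genes, and 30 of the 39 (76.9%) were above the negative control level, against 71.3% of all genes. After P-bi-TAT 34 members were above the level of that group, which was lower (3.23, against 3.81 untreated), while the members' median was 4.91. These counts thus use unlike levels and do not show that more members were detected. ZBTB7C, ZBTB16, ZBTB22, ZBTB42 and ZBTB48 were at or under the level of the group in both groups. The 6 members above the 95th percentile of the negative controls (7.24) were ZBTB38, ZBTB33, ZBTB21, ZBTB40, ZBTB1 and ZBTB32, which is 15.4% of the members, against 26.5% of all genes. Signals of different probe sets also depend on their probes, so this is not an order of transcript abundance.

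**Figure D1:**
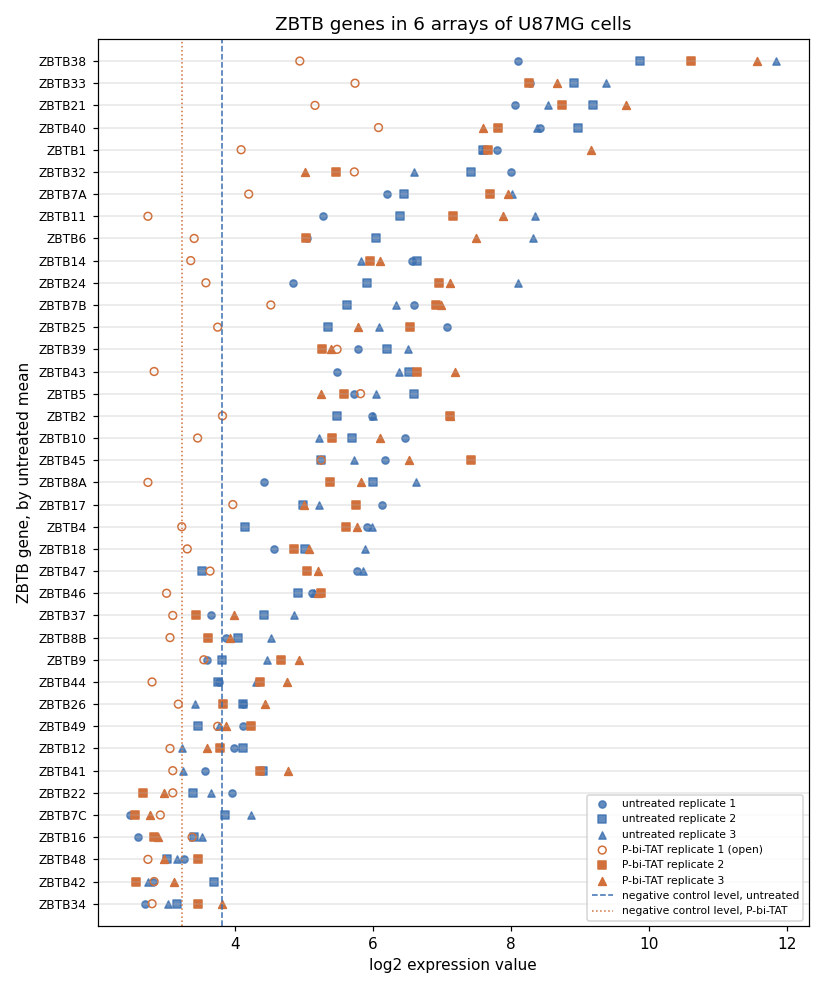
The log2 expression value (x axis) of each of the 39 ZBTB genes (y axis, by untreated mean) in the 3 untreated arrays (blue) and the 3 P-bi-TAT arrays (orange, replicate 1 open), with the negative control level of each group as a dashed or dotted line. For 28 of the 39 genes the lowest of the 6 values was in P-bi-TAT replicate 1, as for 67.4% of all genes. The values run from 2.48 to 11.84.

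Treated and untreated arrays were compared in one limma fit over the 21448 gene probe sets, with Benjamini-Hochberg adjustment over all of them. At an adjusted p under 0.05 limma called 0 of the 39 members (the smallest was an adjusted p of 0.847), as it called 0.0% of all genes. The one-way analysis of variance and the fit with array weights also called 0 members at that threshold, while of all genes they called 1 (0.00565%) and 7 (0.0396%). At 1.5-fold and an unadjusted p under 0.05, 0 members were higher (0.192% of all genes) and 2 were lower, ZBTB32 and ZBTB40, which is 5.13% of the members and close to the 4.98% of all genes. The count of lower members was 1 on leaving out replicate 2 or 3 of the untreated arrays, or replicate 1 or 3 of the P-bi-TAT arrays, and it was then ZBTB32 each time, where 3.64%, 4.15%, 5.31% and 3.21% of all genes were lower. Without untreated replicate 1 the 2 lower members were ZBTB32 and ZBTB7C (3.23% of all genes). After quantile normalization 2 members were higher (ZBTB9 and ZBTB45) and 0 lower, against 3.82% and 3.12% of all genes, and after median centring ZBTB45 was higher and ZBTB32 lower, against 2.15% and 1.24%.

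The members' median log2 difference was -0.57, against -0.43 over all genes, and 7 members (17.9%) were above 0, against 21.3% of all genes. Quantile normalization moved the median of all genes to 0.00 and that of the members to -0.16, and median centring moved them to 0.08 and -0.06. Without P-bi-TAT replicate 1 the medians were 0.07 for the members and -0.01 for all genes, and 20 members (51.3%) were above 0, against 49.3%. Then 2 members, ZBTB2 and ZBTB45, were higher at 1.5-fold and an unadjusted p under 0.05 (9.26% of all genes), and 1, ZBTB32, was lower (5.31% of all genes). None passed after adjustment (limma, smallest adjusted p among members = 0.173), and of all genes 0.0% did.

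Array by array, the members differed from their untreated means by a median of -1.60 in P-bi-TAT replicate 1, 0.00 in replicate 2 and 0.16 in replicate 3, where all genes had -1.23, -0.02 and 0.00. In replicate 1 only ZBTB16, which was under the negative control level, was above its untreated mean, against 8.44% of all genes. In replicates 2 and 3 this was so for 19 and 23 members, against 48.9% and 49.9% of all genes. Both of these arrays were above the untreated mean for 16 members and below it for 13, which was not counted over all genes. They correlated at r = 0.955 over the 39 members and 0.987 over all genes. Over the members, r was 0.783 to 0.886 between untreated arrays and 0.798 to 0.919 between untreated arrays and P-bi-TAT replicates 2 and 3. For pairs with P-bi-TAT replicate 1 it was 0.493 to 0.744. These correlations are across genes, which are not independent replicates.

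**Figure D2:**
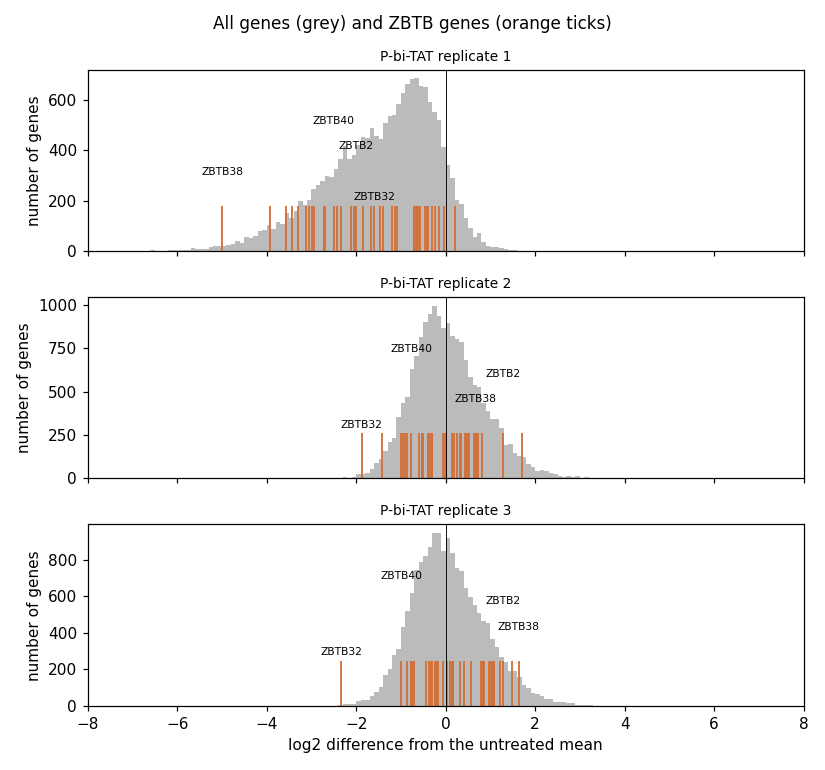
Number of genes (y axis) by log2 difference from the untreated mean (x axis) in each P-bi-TAT array, with all 17687 genes in grey and the 39 ZBTB genes as orange ticks. In replicate 1 the members have a median of -1.60, while in replicates 2 and 3 they lie on both sides of 0 with ZBTB32 lowest.

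All 3 P-bi-TAT arrays lay below all 3 untreated arrays for 4 members, ZBTB22, ZBTB32, ZBTB39 and ZBTB40, which is 10.3% of the members against 14.5% of all genes. The reverse held for 0 members and 0.758% of all genes. In replicates 2 and 3 alone, 5 members were below all untreated arrays (ZBTB5, ZBTB22, ZBTB32, ZBTB39 and ZBTB40), or 12.8% against 17.9% of all genes. There 8 were above them (ZBTB2, ZBTB7B, ZBTB9, ZBTB34, ZBTB43, ZBTB44, ZBTB45 and ZBTB46), or 20.5% against 19.1%.

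Among the members known from blood and immune lineages, ZBTB32 had the lowest log2 difference of the family. It encodes a repressor studied in activated lymphocytes and natural killer cells. Its untreated values were 8.0, 7.42 and 6.59, and its values after P-bi-TAT were 5.73, 5.46 and 5.01. The highest treated array was thus below the lowest untreated array, and P-bi-TAT replicate 1 did not stand apart from the other treated arrays. The log2 difference was -1.94 (SE 0.50, unadjusted p = 0.0062, limma adjusted p = 0.847), a 3.83-fold lower mean, and without P-bi-TAT replicate 1 it was -2.10 (SE 0.49, limma adjusted p = 0.173). An exact permutation test of this gene gave p = 0.1, two-sided, the smallest that 3 against 3 arrays allow. ZBTB32 stood at percentile 0.322 of all genes' differences in replicate 2 and 0.0396 in replicate 3, but at 39.9 in replicate 1. With an intensity trend in the variance, or after quantile normalization (log2 difference -1.09), it was no longer past the unadjusted threshold. 

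ZBTB1, which lymphoid development requires in mice, read 7.80, 7.59 and 7.59 in untreated cells and 4.09, 7.66 and 9.16 after P-bi-TAT. Its untreated arrays were close together (SD 0.12), and the treated arrays lay below, level with and above them. The log2 difference was -0.69 (SE 1.2, limma adjusted p = 0.917), and 0.75 without P-bi-TAT replicate 1. ZBTB25 lies next to it on chromosome 14, and the genes overlap on opposite strands. ZBTB25 read 7.07, 5.35 and 6.09 untreated and 3.75, 6.53 and 5.79 after P-bi-TAT, so its groups overlapped. ZBTB7A, a repressor of fetal globin genes, read 6.20, 6.45 and 8.02 untreated and 4.20, 7.69 and 7.96 after P-bi-TAT. ZBTB7B, which directs T cells to the CD4 lineage, was at 6.60, 5.62 and 6.34 against 4.52, 6.91 and 6.98. For both genes replicate 1 was the lowest of the 6 arrays, and for ZBTB7B the other treated arrays exceeded every untreated one. ZBTB46, a marker of classical dendritic cells, was at 4.91 to 5.14 untreated and at 3.01, 5.25 and 5.21 after P-bi-TAT, and ZBTB16, the PLZF of acute promyelocytic leukaemia, was not above the negative controls in either group. Of these 7 genes, 1 was lower at the unadjusted limits, against 4.98% of all genes. Their median log2 difference was -0.57, or 0.17 without P-bi-TAT replicate 1.

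The members that read methylated DNA or keep it methylated were ZBTB33, ZBTB38, ZBTB4 and ZBTB24, and none of the 4 was called. ZBTB38 had the highest signal of the family and the widest untreated spread, with 8.10, 9.87 and 11.84 in untreated replicates 1, 2 and 3, a range of 3.74. After P-bi-TAT it read 4.94, 10.61 and 11.56, so that only replicate 1 lay outside the untreated range. Its log2 difference of -0.90 (SE 1.81, limma adjusted p = 0.924) became 1.15 without P-bi-TAT replicate 1 and 0.05 without untreated replicate 3. ZBTB33 encodes Kaiso, which binds methylated CpG pairs and the Kaiso site. Its untreated values of 8.27, 8.91 and 9.38 faced 5.74, 8.26 and 8.66, a log2 difference of -1.30 (SE 0.82, limma adjusted p = 0.847) and of -0.40 without P-bi-TAT replicate 1. Replicate 2 was just below the lowest untreated array and replicate 3 within the untreated range. ZBTB24, mutated in a form of the immunodeficiency, centromere instability and facial anomalies syndrome, read 4.84, 5.91 and 8.10 untreated and 3.58, 6.95 and 7.12 after P-bi-TAT. ZBTB4, which also binds methylated CpG, was at 5.92, 4.14 and 5.99 against 3.23, 5.61 and 5.77. Both overlapped between groups in replicates 2 and 3. The median log2 difference of these 4 was -0.69, or 0.54 without P-bi-TAT replicate 1.

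Of the members tied to MYC, p53 and cell cycle genes, ZBTB2 had the highest log2 difference of the family once P-bi-TAT replicate 1 was left out. ZBTB2 is known to repress CDKN1A, the gene of the cyclin dependent kinase inhibitor p21. It read 5.99, 5.48 and 6.0 untreated and 3.82, 7.11 and 7.11 after P-bi-TAT. Replicate 1 was thus below, and replicates 2 and 3 above, every untreated array. With all arrays the log2 difference was 0.19 (SE 0.91, limma adjusted p = 0.972), without P-bi-TAT replicate 1 it was 1.29 (unadjusted p = 0.00978, limma adjusted p = 0.229), and without replicate 2 or 3 it was -0.36. ZBTB5, another repressor of CDKN1A, read 5.72, 6.59 and 6.04 untreated and 5.82, 5.58 and 5.25 after P-bi-TAT, and here replicate 1 was the highest treated array. ZBTB17 encodes Miz-1, the partner through which MYC represses genes, and read 6.13, 4.98 and 5.22 against 3.97, 5.75 and 5.00. For CDKN1A itself the untreated values were 9.33, 8.84 and 8.86 and the treated values 8.12, 11.07 and 10.76. Its log2 difference was 0.97 (limma adjusted p = 0.868), and 1.91 without P-bi-TAT replicate 1 (unadjusted p = 0.00111).

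At telomeres, ZBTB48 binds the repeats and ZBTB10 their variants, and ZBTB40 was grouped with them. ZBTB40 read 8.42, 8.97 and 8.37 untreated and 6.08, 7.81 and 7.60 after P-bi-TAT, with every treated array below every untreated one. Its log2 difference was -1.42 (SE 0.57, unadjusted p = 0.0406, limma adjusted p = 0.847), or -0.88 without P-bi-TAT replicate 1, and the exact permutation p was 0.1, two-sided. ZBTB10 read 6.47, 5.70 and 5.22 against 3.46, 5.41 and 6.10, and replicates 2 and 3 lay within the untreated range. ZBTB48 was under the negative control level in untreated cells, at 3.02 to 3.26. 

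In the nervous system, ZBTB18 restrains gene programmes of developing cortical neurons, and variants of ZBTB11 are a cause of recessive intellectual disability. ZBTB11 read 5.28, 6.39 and 8.35 untreated and 2.74, 7.16 and 7.89 after P-bi-TAT, and ZBTB18 read 4.56, 5.02 and 5.88 against 3.31, 4.86 and 5.08. In both, replicate 1 was the lowest array and the other treated arrays were within the untreated range.

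The remaining 20 measured members are less well characterized. Their median log2 difference was -0.50 (0.00 without P-bi-TAT replicate 1), and 6 of them were above 0, against 21.3% of all genes. The study listed ZBTB6 among genes tied to glioma survival in its analysis of a primary glioblastoma culture, not of U87MG. In these U87MG arrays ZBTB6 read 5.04, 6.05 and 8.32 untreated and 3.41, 5.03 and 7.49 after P-bi-TAT. Replicate 3 was the highest array in each group, and the groups overlapped. The log2 difference was -1.16 (SE 1.22, limma adjusted p = 0.874) and -0.21 without P-bi-TAT replicate 1, with an exact permutation p of 0.4, two-sided. ZBTB26, its neighbour on chromosome 9, was lower in signal, at 4.12, 4.11 and 3.42 untreated and 3.18, 3.83 and 4.44 after P-bi-TAT, so that these neighbours were highest in different untreated arrays.

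ZBTB21 read 8.05, 9.18 and 8.54 untreated and 5.16, 8.74 and 9.67 after P-bi-TAT. Only replicate 1 was below the untreated range, and replicate 3 was above it. Its log2 difference of -0.73 (SE 1.13, limma adjusted p = 0.908) became 0.62 without P-bi-TAT replicate 1. ZBTB39 read 5.78, 6.20 and 6.50 untreated and 5.48, 5.26 and 5.39 after P-bi-TAT, the narrowest treated spread of the 39 members (SD 0.11), and its groups did not overlap. The log2 difference was -0.78 (SE 0.39, limma adjusted p = 0.847), or -0.84 without P-bi-TAT replicate 1, and 0.01 after quantile normalization, with an exact permutation p of 0.1, two-sided. ZBTB22, with 3.96, 3.39 and 3.66 against 3.10, 2.67 and 2.97, also did not overlap but was under the negative control level in both groups.

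ZBTB45, which acts in glial differentiation in mice, read 6.18, 5.24 and 5.73 untreated and 5.25, 7.42 and 6.52 after P-bi-TAT. It had the highest log2 difference of the family with all arrays, 0.68 (SE 0.63, limma adjusted p = 0.869), and 1.26 without P-bi-TAT replicate 1 (unadjusted p = 0.0265, limma adjusted p = 0.288). Replicates 2 and 3 were above every untreated array, and replicate 1 was just above the lowest of them. ZBTB43 read 5.48, 6.52 and 6.37 untreated and 2.83, 6.64 and 7.19 after P-bi-TAT, with replicates 2 and 3 also above every untreated array and replicate 1 below them all. Its neighbour ZBTB34 was under the negative control level in untreated cells (2.70, 3.16 and 3.03) and read 2.80, 3.46 and 3.81 after P-bi-TAT. ZBTB8A, in a run of genes with ZBTB8B and ZBTB8OS on chromosome 1, read 4.42, 6.0 and 6.62 against 2.74, 5.38 and 5.83. ZBTB8OS read 7.32, 8.32 and 8.06 against 4.76, 8.87 and 8.73, so its replicates 2 and 3 were above all untreated arrays, whereas those of ZBTB8A lay within the untreated range.

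ZBTB14, which binds the MYC promoter, read 6.56, 6.64 and 5.83 untreated and 3.36, 5.95 and 6.10 after P-bi-TAT, and ZBTB47 read 5.77, 3.53 and 5.85 against 3.64, 5.04 and 5.21. In both, the second and last treated arrays were within the untreated range. ZBTB9 read 3.59, 3.82 and 4.47 untreated and 3.55, 4.67 and 4.93 after P-bi-TAT. Its untreated mean stood just over the negative control level, and its treated replicates 2 and 3 were the highest arrays. ZBTB8B, ZBTB12, ZBTB26, ZBTB37, ZBTB41, ZBTB44 and ZBTB49 had untreated means of 3.74 to 4.31, near the negative control level. Of these, ZBTB12, ZBTB41 and ZBTB49 were just below it. ZBTB7C, ZBTB22, ZBTB34 and ZBTB42 had 2.97 to 3.67, also below it.

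**Figure D3:**
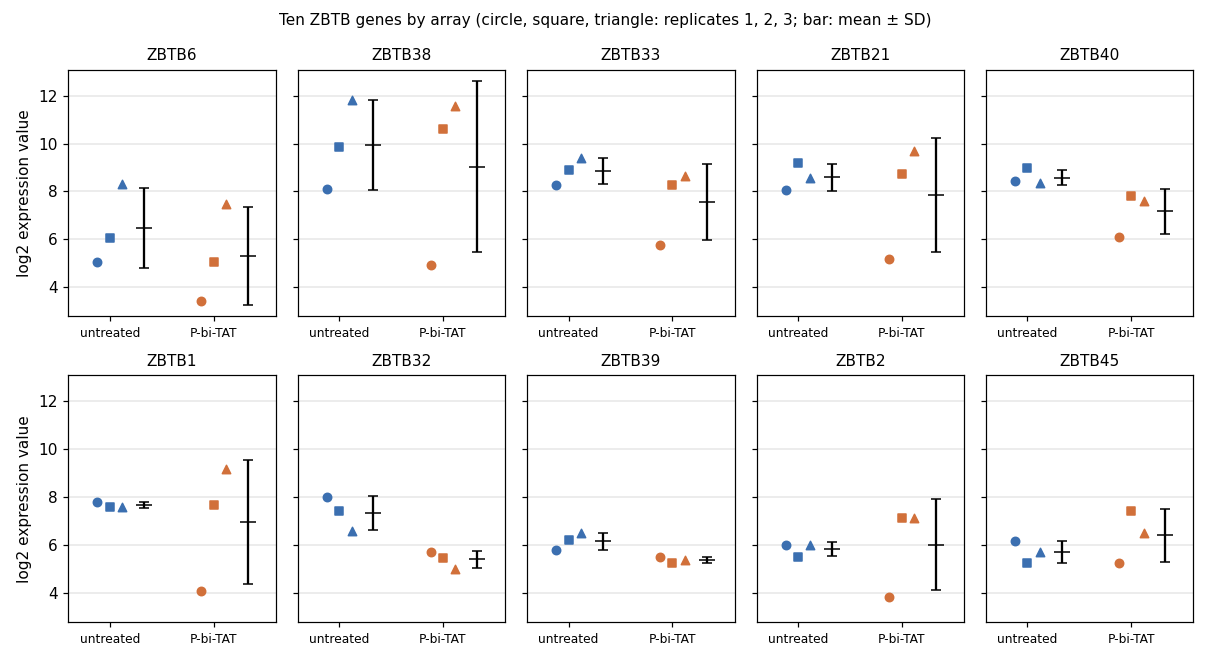
Log2 expression values (y axis) of 10 ZBTB genes in the untreated and P-bi-TAT arrays, with circles, squares and triangles for replicates 1, 2 and 3 and bars for the mean ± SD (n = 3). Only ZBTB40, ZBTB32 and ZBTB39 of these 10 have groups that do not overlap, and in ZBTB2 and ZBTB45 replicates 2 and 3 exceed every untreated array.

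The spread between untreated arrays was itself wide for several members. ZBTB38, ZBTB6, ZBTB24 and ZBTB11 had untreated ranges of 3.74, 3.29, 3.26 and 3.07 on the log2 scale, each with untreated replicate 3 highest and replicate 1 lowest. Over the family the highest untreated array was replicate 3 for 19 members, replicate 1 for 11 and replicate 2 for 9. The median untreated SD was 0.53 for the members and 0.53 for all genes, and after P-bi-TAT it was 0.97 and 0.78. With all 3 treated arrays the SD was higher after P-bi-TAT than in untreated cells for 28 members. This was not counted over all genes, whose median SD was also higher, so it cannot be read as a trait of the family. Between P-bi-TAT replicates 2 and 3 alone, a comparison added after seeing the data, the median SD was 0.25 for the members and 0.21 for all genes. For 7 members this SD of 2 arrays exceeded the untreated SD of 3 arrays, which was not counted over all genes either. An SD of 2 values tends to be smaller than one of 3, so these are not like for like.

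**Figure D4:**
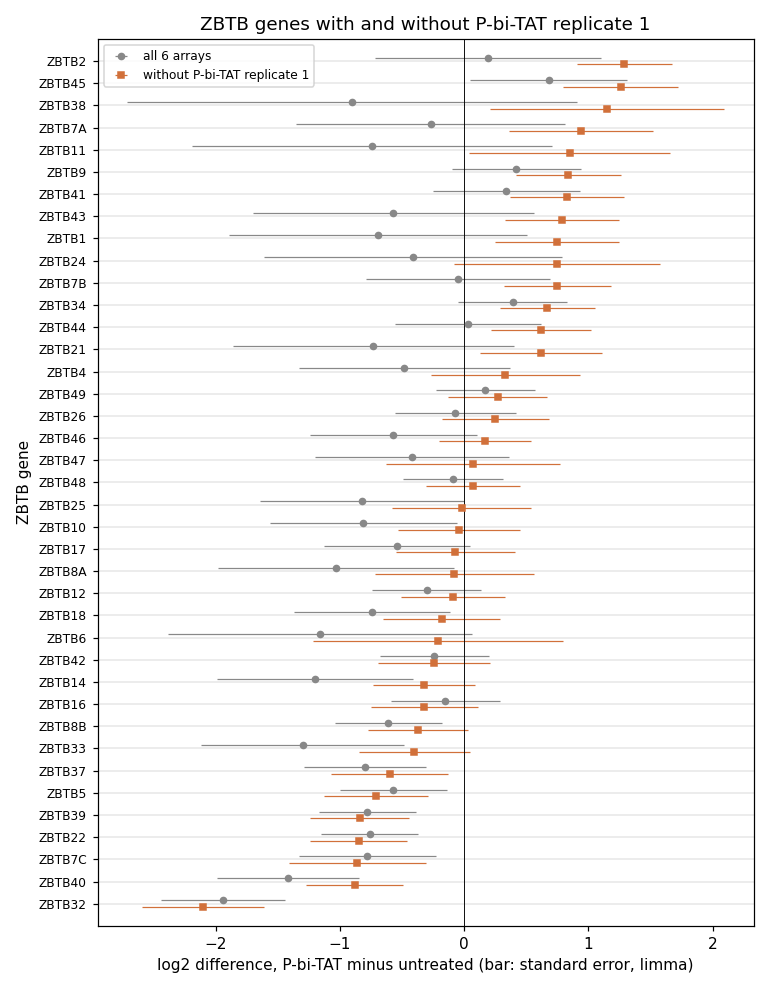
Log2 difference of P-bi-TAT minus untreated (x axis) for each of the 39 ZBTB genes (y axis) with all 6 arrays (grey circles) and without P-bi-TAT replicate 1 (orange squares), with bars for the standard error from limma. The differences run from -1.94 to 0.68 with all arrays and from -2.10 to 1.29 without that array, with ZBTB32 lowest in both.

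Genes around the family were read in the same fit. The 8 BTB zinc finger genes under other symbols included 0 called with all arrays, where 0.192% of all genes were higher and 4.98% lower. Of the 8, 1 was above 0, against 21.3% of all genes. Without P-bi-TAT replicate 1, 3 of them were higher at the unadjusted limits and 0 were lower, against 9.26% and 5.31% of all genes. BCL6, the repressor of germinal centre B cells, read 7.64, 7.25 and 7.85 untreated and 3.82, 8.90 and 9.13 after P-bi-TAT, for which the log2 difference of -0.30 became 1.43 without that array. GZF1 went from 0.66 to 1.49 and MYNN from -0.21 to 1.00. In all 3 genes, which were named for these calls, the treated replicates 2 and 3 were above every untreated array. This held for 19.1% of all genes.

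Of 13 corepressors and CUL3 partners, 11 were measured, and all had untreated means above the negative control level. Only HDAC1, a histone deacetylase, was lower at the unadjusted limits, as were 4.98% of all genes. It read 11.91, 11.83 and 11.53 untreated and 9.96, 10.36 and 10.46 after P-bi-TAT, with no overlap. The log2 difference was -1.50 (SE 0.39, unadjusted p = 0.00625, limma adjusted p = 0.847), and -1.35 without P-bi-TAT replicate 1. The median over the 11 was -0.72, or 0.36 without that array, when 2 were higher (CTBP2 and TBL1XR1) and HDAC1 lower, against 9.26% and 5.31% of all genes. Of 16 textbook targets of ZBTB proteins, 14 were measured, 9 of them above the negative control level in untreated cells. The median log2 difference of the 14 was -0.33, or -0.07 without that array. With all arrays 0 were called higher and 1 lower, against 0.192% and 4.98% of all genes. Leaving out P-bi-TAT replicate 1 gave 3 higher, CDKN1A (1.91), BCL2 (1.13) and CCND1 (1.09), and 1 lower, against 9.26% and 5.31%. The one called lower, MMP7, stood near the negative controls at 3.39, 3.84 and 4.36 against 2.97, 2.39 and 2.64. The 21 KLHL genes, which encode BTB proteins without zinc fingers, included 0 called with all arrays. Their median was -0.23, or 0.34 without P-bi-TAT replicate 1. Then KLHL18 (1.3) and KLHL20 (0.93) were higher and 0 lower, against 9.26% and 5.31% of all genes.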

How the data were processed

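RNA of U87MG cells was measured on 6 Clariom S arrays, 3 per group. The authors summarised each probe set and deposited 1 log2 value for it per array. RMA in Transcriptome Analysis Console 4.0.1.36 is named in the processing notes of the submitters, whereas the methods name SST-RMA, and it is unsettled which was used. No genome build is given in the sources used here. The values were used as deposited, and the number of arrays limits the precision.

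Control probe sets (2903) were left out. The 21448 gene probe sets were fitted in R 4.3.3 by lmFit and eBayes of limma 3.58.1, and p-values were adjusted by the Benjamini-Hochberg method over all of them. Each of 17687 genes was read from its one-symbol probe set with the highest mean. Calls used an adjusted p under 0.05, or 1.5-fold and an unadjusted p under 0.05. The negative control level is the mean, over the arrays of a group, of the median of 612 negative control probe sets. Single genes were also compared by an exact permutation test over the arrays. The fit was tested on simulated data.

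The members and gene lists were chosen with earlier results of these data known, and ZBTB7C was placed in its group after its symbol was found in the table. By rule, full statistics are given for ZBTB6, the 5 members with the highest untreated mean, members above the negative control level whose groups did not overlap, and the 3 highest and 3 lowest without P-bi-TAT replicate 1 among members above that level in untreated cells. Other members were given as array values, and genes of the other lists were named for their calls, after these were seen. Alternatives left out each array, changed the scaling, filter, test, weights or variance model, averaged probe sets, or added a replicate block. Symbols come from the array annotation, and neighbouring genes and promoter sequences from RefSeq (GRCh38.p14).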

Additional observations from a re-analysis of the deposited data

How the results depend on the processing

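Of 150 values (10 genes under 15 alternatives), 137 kept their direction and side of the adjusted threshold, and 13 turned sign. No member passed an adjusted p under 0.05 in limma under any alternative. With array weights ZBTB32 came near it, with a log2 difference of -2.04 (limma adjusted p = 0.0581), and 7 of all genes passed. Members higher at 1.5-fold and an unadjusted p under 0.05 numbered 0, but 3 without P-bi-TAT replicate 1 and with quantile normalization, 2 with quantile normalization or array weights, 1 with median centring, and 0 to 2 leaving out 1 array. Members lower numbered 2, but 0 with quantile normalization or a variance trend, 1 with median centring or without the dimmest probe sets, 5 with array weights, 3 with the one-way analysis of variance (ZBTB22, ZBTB32 and ZBTB39) or without P-bi-TAT replicate 1 and with quantile normalization, and 1 to 2 leaving out 1 array. The median of -0.57 became 0.15 without P-bi-TAT replicate 1 and with quantile normalization and 0.07 with array weights, which gave that array 0.1095, and ran from -0.81 to 0.07 leaving out 1 array. Under the same 2 settings ZBTB38 turned to 0.75 and 0.89, ZBTB21 to 0.23 and 0.50, and ZBTB1 to 0.37 and 0.77. ZBTB39 was 0.01 with quantile normalization. Leaving out 1 array, ZBTB38 ran from -2.16 to 1.15, ZBTB21 from -1.64 to 0.62, ZBTB1 from -1.79 to 0.75 and ZBTB2 from -0.36 to 1.29. The causes were not tested. Over all genes, the same limits called 34 higher and 880 lower, against 675 and 552 with quantile normalization, 381 and 220 with median centring, and 1928 (10.9%) and 1694 (9.58%) with array weights. Without P-bi-TAT replicate 1 and with quantile normalization 5.61% were higher and 4.85% lower. The share lower was 5.99% with the one-way analysis of variance, 6.55% with a variance trend and 2.3% without the dimmest probe sets. Leaving out 1 array, 0.0396% to 9.26% were higher and 3.21% to 5.31% lower. The labels do not say whether the replicate numbers pair the samples. Deviations of arrays with the same number correlated at 0.32, 0.04 and 0.35, and those with different numbers at -0.40 to 0.16. With the replicate block 0 members were higher, 2 lower and the median stayed -0.57, where 0.17% of all genes were higher and 4.33% lower. In untreated cells 9 members were not above the negative control level, which limits what can be read of them. Only 6 members were above the 95th percentile of these controls (7.24), so the limit can reach other members too.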
